A study of Mus musculus with 11 samples.

Results

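Follicular helper T cells were examined in 1 droplet-based single-cell library of sorted CD4+ CD44+ T cells. The library came from draining lymph nodes of C57BL/6 mice heterozygous for a Sostdc1-EGFP reporter, so every cell compared here carried the reporter allele. The labels of this library name no immunization, age, sex or number of animals. The series holds 11 samples in 8 groups; the other 10 samples, bulk RNA and chromatin libraries of sorted T cells, were not analysed here. Members were chosen by RNA: at least 1 unique molecular identifier (UMI) of Cxcr5 and of Pdcd1, at least 1 UMI of the CD3 genes Cd3d, Cd3e or Cd3g, no UMI of Foxp3 or Cd79a, and fewer than 2 of the cycling genes Mki67, Top2a, Birc5 and Cdk1 detected. Barcodes needed at least 500 genes and under 10% mitochondrial UMIs. Of 15002 barcodes, 13190 passed these filters and 12406 were Cd3-positive. Of the Cd3-positive cells, 2137 had a Cxcr5 UMI, 1008 of those a Pdcd1 UMI, 885 of those no Foxp3, 822 of those no Cd79a, and 681 were not cycling. These 681 cells, 5.49% of Cd3-positive cells, are called Tfh cells below, and the other 11725 Cd3-positive cells are the main comparison.

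Follicular helper T (Tfh) cells are CD4 T cells that enter B cell follicles and help germinal centre B cells mature. The chemokine receptor CXCR5 draws them towards the follicle, the transcription factor BCL6 holds the programme in place, and the inhibitory receptor PD-1, encoded by Pdcd1, marks cells in or near germinal centres. Their help is delivered through CD40 ligand and the cytokines interleukin 21 and interleukin 4. The product of Sostdc1 is secreted and inhibits Wnt and BMP signalling.

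The Tfh cells held 5390906 UMIs, with a median of 7043 UMIs and 2289 genes per cell. The other Cd3-positive cells had a median of 6039 UMIs and 1824 genes. Requiring 2 RNA species at once favours deep cells, so shares of cells are also given after thinning each cell to 3000 UMIs, which left out 17 Tfh cells and 834 of the others. The median mitochondrial share was 5.6% in Tfh cells and 4.51% in the other Cd3-positive cells, and a limit of 5% in place of 10% kept 232 of the Tfh cells. Levels are UMIs summed over a group and scaled to a common total (CPM). With 1 library there is no replicate and no test: the exact 95% intervals reflect counting error alone, and cells of 1 library share their animals and handling. Since the gate used this same contrast, differences from the other cells describe the gated cells. A summed level cannot tell more cells with a gene from more RNA per cell, so shares of cells are given beside the main ones.

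The markers below describe the gated cells and do not test the label, because members were chosen with earlier results of these data known. Besides Cxcr5 (280 CPM in Tfh cells, 26.1 CPM in the other Cd3-positive cells) and Pdcd1 (358 and 43.8 CPM), which defined the gate, the 4 further markers all stood higher. Tox2, a nuclear factor of the Tfh programme, was at 163 CPM in Tfh cells (152 to 174) and 21.9 CPM in the others (20.9 to 22.9). Il21 was at 69.9 CPM (63.1 to 77.4) and 9.16 CPM (8.55 to 9.79), Ascl2 at 36.4 CPM (31.4 to 41.8) and 1.90 CPM (1.63 to 2.20), and Rgs16, a regulator of G protein signalling, at 40.3 CPM (35.1 to 46.0) and 5.67 CPM (5.20 to 6.18). Tox2 was found in 62.6% of Tfh cells and 10.1% of the others, and in 34.9% and 5.17% after thinning. The other 3 were sparser: Il21 had a UMI in 27.8% of Tfh cells, Ascl2 in 16.3% and Rgs16 in 14.2%, against 3.67%, 0.947% and 2.98% of the others. In 477 B cells, defined by Cd79a and Cd79b without CD3 and with a median of 4753 UMIs, Il21 was found in 0.210% and Tox2 in 1.89%. Ascl2 and Rgs16 were found in 0 of 477 B cells, which at 3 counts of the total allows up to 0.629% of cells with a UMI.

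Markers of other cells were found in Tfh cells to varying extents. A UMI of Cd79b, Ms4a1, Ebf1 or Pax5 was present in 99 Tfh cells, or 14.5%, and in 16.1% of the others, and 6 Tfh cells had 2 of these genes. At least 1 UMI was more frequent in Tfh cells for the regulatory T cell genes Il2ra and Ikzf2 (61.4%, against 46.1% of the others), for the myeloid genes Lyz2, Cst3, Csf1r and Itgam (64.5% and 53.1%) and for Cd8a, Cd8b1, Ncr1, Klrb1c, Trdc and Tcrg-C1 of CD8, NK and gamma-delta T cells (20.3% and 13%). At least 2 genes of each set were found in 3.23%, 4.11% and 1.47% of Tfh cells and 16.6%, 4.99% and 1.98% of the others. For the plasma cell genes Jchain, Sdc1 and Mzb1 the shares with 1 were 7.93% and 11.6%. In summed level neither Ikzf2 nor Cst3 stood above the others, with Ikzf2 at 259 CPM in Tfh cells and 292 CPM in the others and Cst3 at 138 and 173 CPM. Igkc, an immunoglobulin light chain of B cells, was found in 72.5% of Tfh cells and 72.0% of the others, at 207 and 4384 CPM. Cd8a was found in 0 of 681 Tfh cells, which by the same 3 counts allows up to 0.441% of cells with a UMI, and Cd4 in 81.9% of Tfh cells and 59.1% of the others. Lyz2, a myeloid gene, had 793 UMIs in 39 Tfh cells, and 1 cell held 81.8% of them. Trdc, of gamma-delta T cells, had 131 UMIs, of which 10 cells held 97.7%. The part of these cells in the levels below was not tested, except that leaving out all cells with a UMI of Cd79b, Ms4a1, Ebf1 or Pax5, 99 of them Tfh cells, left 207 genes at least 2-fold higher, against 228 with them.

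**Figure D1:**
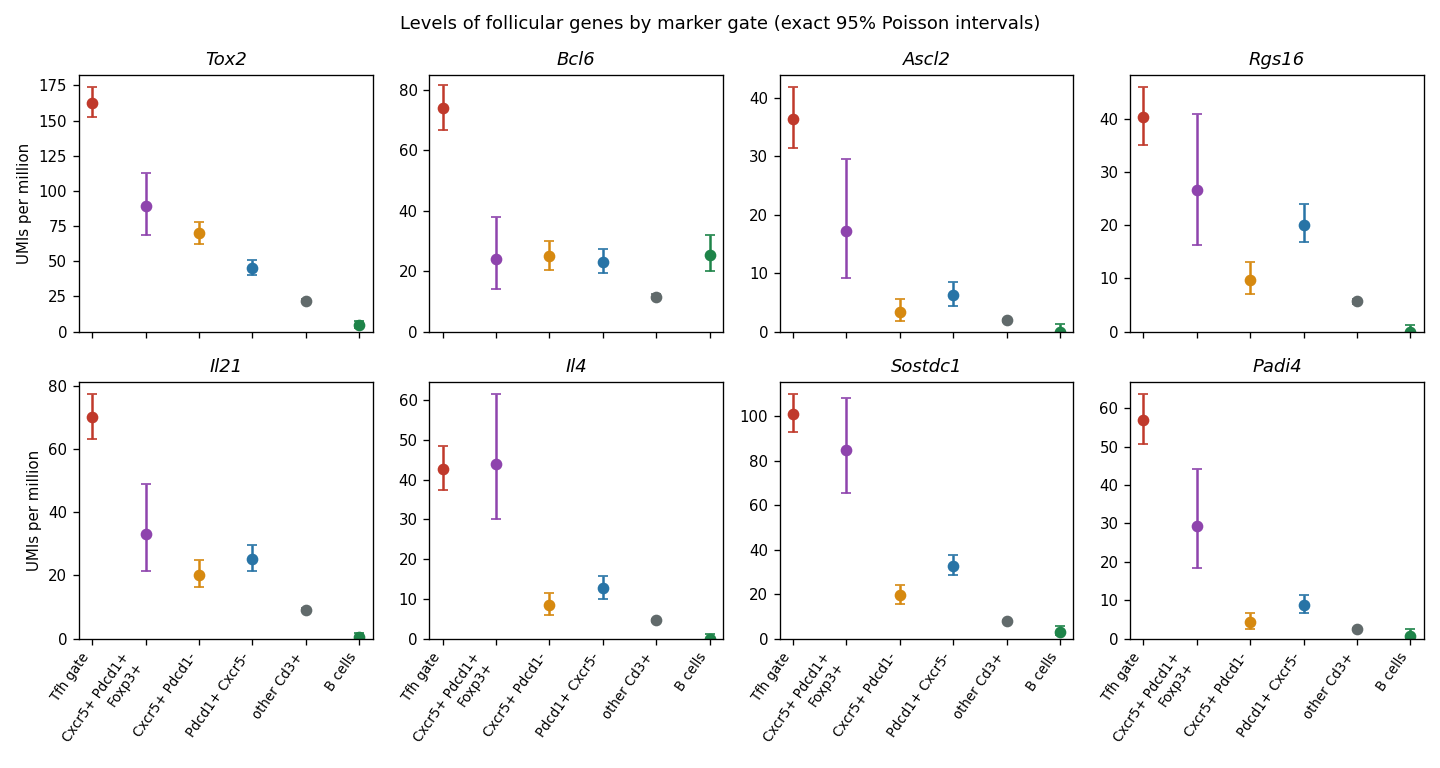
Summed level in CPM (y axis, each panel with its own scale) of 8 genes in Tfh cells, Cxcr5+ Pdcd1+ Foxp3+ cells, Cxcr5+ Pdcd1- cells, Pdcd1+ Cxcr5- cells, all other Cd3+ cells and B cells; points are levels and bars exact 95% Poisson intervals. The Tfh gate has the highest point in 7 of 8 panels, and for Il4 the Foxp3+ cells reach 43.8 against 42.7 CPM in Tfh cells.

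Of 7237 genes with a mean of at least 10 CPM over Tfh cells and the others, 228 (3.15%) were at least 2-fold higher in Tfh cells and 293 (4.05%) at least 2-fold lower, so 43.8% of the genes past 2-fold were higher. The median log2 ratio of the 7237 genes was 0.12. Scaling by the median ratio of genes with at least 20 UMIs in both groups gave 169 higher and 336 lower genes, or 33.5% higher. The other cells include Foxp3+, B cell-like and cycling cells, which the gate leaves out of the Tfh cells. Set against a narrower comparison of 7466 Cd3-positive cells without Foxp3, Cd79a and cycling cells (median 5723.5 UMIs), 240 of 7099 genes (3.38%) were higher and 116 (1.63%) lower. Among genes with a UMI in at least 5% of Tfh cells, those highest over the other cells were Padi4, an enzyme that converts arginine to citrulline in proteins (23.4-fold, 19.6 to 27.9), Ascl2 (19.2-fold), Sostdc1 (12.8-fold, 11.4 to 14.3), the keratin gene Krt83 (11.7-fold, 10.4 to 13.1) and Il4 (9.37-fold, 7.95 to 11). High ratios were also found for H2-Q2, a class I histocompatibility gene with close relatives (9.17-fold), the transcription factor gene Cebpa (8.83-fold), Fam43a (8.68-fold) and Dnase1l3, a secreted nuclease (8.37-fold). Il21, Tox2, Asb2 (7.16-fold), Rgs16, Bcl6 (6.37-fold), Ica1l, Coro2b, the ATP receptor gene P2rx7 (5.83-fold) and the secreted factor Angptl2 (5.73-fold) were also among the 20 highest. Several of these genes were concentrated in the gate. Tfh cells were 5.49% of Cd3-positive cells but held 57.6% of Padi4 UMIs and 52.7% of Ascl2 UMIs.

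**Figure D2:**
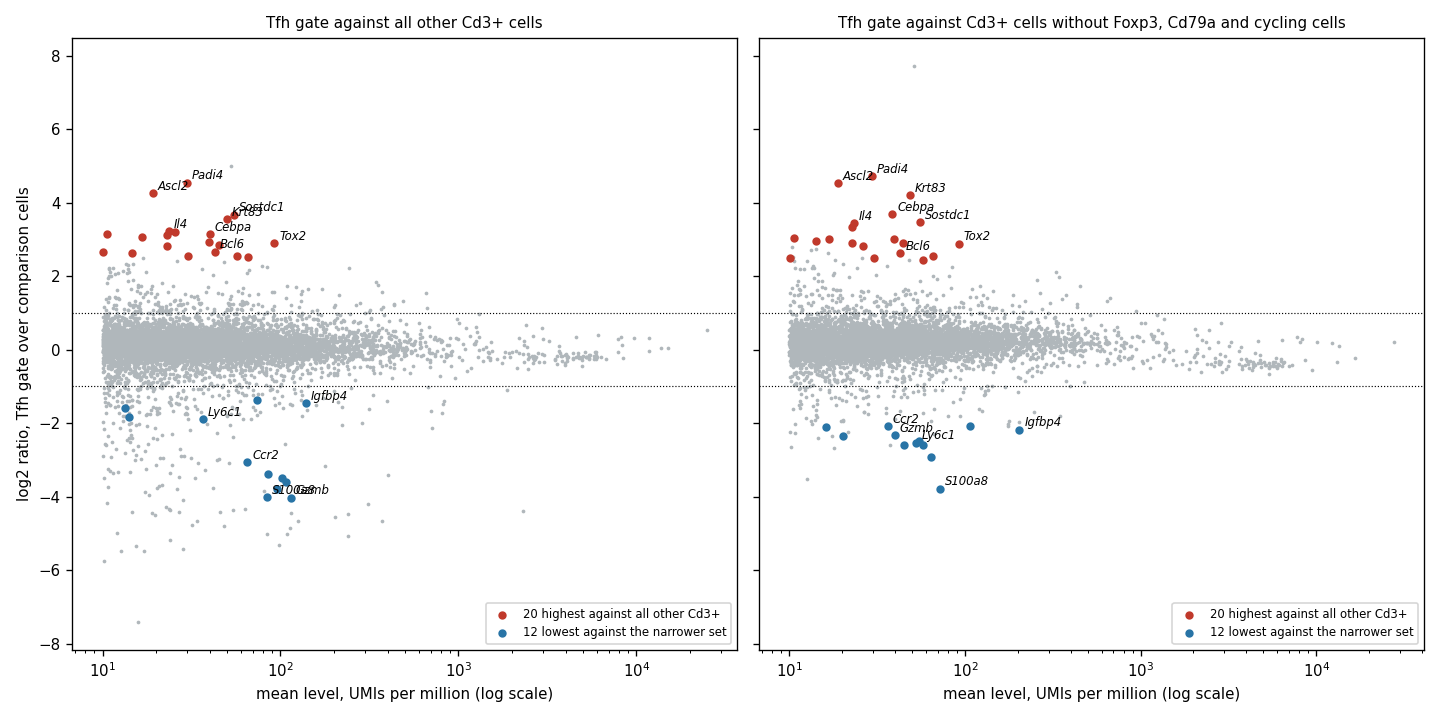
log2 ratio of Tfh cells over the comparison cells (y axis) against the mean of both levels in CPM (x axis, log scale) for genes at or above 10, against all other Cd3+ cells on the left and against the set without Foxp3, Cd79a and cycling cells on the right. Red points are the 20 highest genes, blue points the 12 lowest against the narrower set, and dotted lines mark 2-fold; Padi4 and Ascl2 stand highest in red, and grey points beyond them are genes found in too few cells or left out by name.

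Genes of the Tfh transcription factor list stood mostly higher. Of 17 measured, 8 were at least 2-fold higher and 2 lower, beside 3.15% higher and 4.05% lower over all genes. The median log2 ratio was 0.84, beside 0.12 over all genes. The 8 were Ascl2, Tox2, Bcl6, Tox (3.29-fold), the calcium-responsive factor Nfatc1 (2.65-fold), Maf, which drives Il21 and Il4 transcription (2.5-fold), Tcf7 and Pou2af1 (2.16-fold each). Tcf7, which encodes TCF-1, depended on the comparison: it was at 499 CPM in Tfh cells and 231 CPM in the others, but only 1.46-fold higher against the narrower set. Pou2af1, an octamer-binding coactivator, went the other way, at 4.70-fold against the narrower set. The 2 lower genes were Bach2, a repressor of effector programmes (2.70-fold lower), and Prdm1, which encodes Blimp-1 and opposes Bcl6 (2.82-fold lower). Prdm1 was at 1.26-fold lower against the narrower set, short of the 2-fold limit.

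Promoter sequence is shown for Ascl2, Il21 and Il4, 3 genes of the 20 highest that act in Tfh differentiation or help. The letters are the 250 bases before each RefSeq start on GRCm38.p6 and are read along the gene's strand. Capitals mark the E-box CAGGTG in Ascl2 and the NFAT core GGAAA, or its reverse complement TTTCC, in Il21 and Il4, all searched on both strands. The positions are Ascl2, chr7:142969265-142969514, Il21, chr3:37232637-37232886, and Il4, its upstream start of 2, chr11:53618666-53618915, each on the minus strand.
Ascl2: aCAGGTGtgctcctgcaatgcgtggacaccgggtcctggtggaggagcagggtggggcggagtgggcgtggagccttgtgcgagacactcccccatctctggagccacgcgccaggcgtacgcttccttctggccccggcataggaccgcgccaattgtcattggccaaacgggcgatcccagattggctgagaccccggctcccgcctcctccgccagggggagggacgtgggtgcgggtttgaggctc
Il21: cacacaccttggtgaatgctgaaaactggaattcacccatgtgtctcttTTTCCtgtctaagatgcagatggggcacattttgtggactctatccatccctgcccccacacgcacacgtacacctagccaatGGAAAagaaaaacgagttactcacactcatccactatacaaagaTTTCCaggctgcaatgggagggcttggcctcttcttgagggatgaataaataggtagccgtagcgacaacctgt
Il4: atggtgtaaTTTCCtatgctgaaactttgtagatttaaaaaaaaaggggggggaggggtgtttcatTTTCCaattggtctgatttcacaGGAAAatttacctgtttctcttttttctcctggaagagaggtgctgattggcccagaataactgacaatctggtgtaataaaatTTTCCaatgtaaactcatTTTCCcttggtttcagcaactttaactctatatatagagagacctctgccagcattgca
The Ascl2 window held 1 CAGGTG, the Il21 window 3 GGAAA and the upstream Il4 window 5 GGAAA, while the window of the other Il4 start held 0. Of 32851 promoters of this length, 17.2% held CAGGTG and 55.6% held GGAAA. Of the 20 highest genes, 15 had a promoter in the table, and 4 of these held CAGGTG and 8 held GGAAA.

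Help cytokines and ligands gave a median log2 ratio of 1.54. Of 8 measured genes, 6 were at least 2-fold higher and 1 lower, beside 3.15% higher and 4.05% lower over all genes. Besides Il4 and Il21, the 6 were Tnfsf11, the gene for RANK ligand (38.4 CPM in Tfh cells, 11.5 CPM in the others), Tnfsf8, the gene for CD30 ligand (260 and 83.2 CPM), Tnfsf14 (15.8 and 5.87 CPM) and Cd40lg (83.5 and 35.4 CPM). Cd40lg was 2.36-fold higher against the others and 1.82-fold against the narrower set. Ifng, the T helper 1 cytokine, was the lower gene, at 7.98 CPM in Tfh cells and 17.1 CPM in the others.

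For the lists that follow, 3.15% of all genes were higher and 4.05% lower, with a median log2 ratio of 0.12. Among Tfh surface receptors and adaptors, 8 of 26 measured genes were at least 2-fold higher and 5 lower, with a median of 0.52. Higher were Fam43a, P2rx7, S1pr2, which retains cells in germinal centres (3.49-fold), Sh2d1a, encoding the adaptor SAP that stabilises T cell contact with B cells (2.95-fold), the dark zone receptor gene Cxcr4 (2.62-fold), Izumo1r (2.31-fold), Cd200 (2.17-fold) and Nt5e (2.15-fold). Among the lower genes were Cxcr6, Il4ra, the lymph node homing gene Ccr7 (59.5 CPM in Tfh cells, 131 CPM in the others) and Selplg (125 and 273 CPM). Icos, an essential costimulator of Tfh cells, was at 373 CPM in Tfh cells and 311 CPM in the others. Of 8 coinhibitory receptors, Cd160 (5.29-fold) and Btla (2.47-fold) were higher, and of 10 genes of G protein signalling Rgs16, Rgs10 (2.89-fold) and Gna13 (2.23-fold), which acts below S1pr2.

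Gene lists of other T helper fates stood lower or mixed. Of 11 measured T helper 1 and cytotoxic genes, 9 were at least 2-fold lower and 0 higher, with a median of -1.30. Over all genes 4.05% were lower and 3.15% higher. Gzmb, a granzyme, was at 13.2 CPM in Tfh cells and 215 CPM in the others, and at 66.4 CPM in the narrower set. Nkg7 was 3.36-fold lower. The T helper 17 list went both ways, with 2 of 8 genes higher and 3 lower: Il1r1, the interleukin 1 receptor, was at 59.7 CPM in Tfh cells and 13 CPM in the others, and Il22 at 49.0 and 20.3 CPM, while Ltb4r1, Tmem176a and Tmem176b were lower. The direction of its median depended on the comparison. It was -0.43 against the others and 0.31 against the narrower set, where 2 of 7 genes were higher and 2 lower. Of 4 T helper 2 genes, 1 was lower, too few genes to set against the 4.05% lower of all genes. The median was -0.34, and 0.080 against the narrower set. Gata3, the regulator of that fate, was at 56.9 CPM in Tfh cells and 54.5 CPM in the others. Il2ra, the high-affinity interleukin 2 receptor chain, was at 9.83 CPM in Tfh cells and 78.3 CPM in the others, and at 24.5 CPM in the narrower set.

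Of 20 genes of resting and central memory cells, 9 were at least 2-fold lower and 1, Tcf7, higher, beside 4.05% and 3.15% of all genes. The median was -0.72, and -1.14 against the narrower set, where 11 were lower. Il7r, the interleukin 7 receptor gene, was at 67.9 CPM in Tfh cells and 212 CPM in the others, and Klf2, which sustains egress genes, at 154 and 472 CPM. The 12 lowest genes against the narrower set included Ly6c1 (5.78-fold lower), Igfbp4 (4.53-fold), Dapl1 (4.19-fold) and the chemokine receptor gene Ccr2 (4.22-fold). They also included S100a8 and S100a9 of neutrophils and the class II genes H2-Eb1, H2-Ab1 and H2-Aa, and the 12 lowest against all others were genes of cycling, B and plasma cells.

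The glycolysis list depended on the comparison. Of 14 glycolysis genes, 1 was at least 2-fold higher and 1 lower, beside 3.15% higher and 4.05% lower over all genes. The higher gene was Hif1a, a hypoxia-responsive factor, at 546 CPM in Tfh cells and 159 CPM in the others. The median log2 ratio of the list was 0.22. Against the narrower set 3 of 13 were higher and the median was 0.87, beside 0.19 over all genes. None of 36 ribosomal protein genes passed 2-fold, though all 36 had a ratio under 1, with a median log2 ratio of -0.25. None of 29 oxidative phosphorylation genes passed 2-fold either. Of 24 T cell receptor signalling genes, Fyn (2.33-fold) and Ptpn22 (2.1-fold) were higher, with a median of 0.60. Among 22 immediate early genes, Egr2 (3.37-fold), Spry1, Egr1 (2.44-fold) and Dusp6 were higher. For the pathways on which Sostdc1 acts, 1 of 16 genes was higher, Tcf7, and 2 lower, the BMP target Id2 (2.37-fold) and the feedback inhibitor Smad7 (2.94-fold), with a median of 0.16. Of 6 secreted and neuropeptide genes, 3 were higher, Sostdc1, Angptl2 and Spp1, whose 101 UMIs lay in 5 cells. Of 16 regulatory T cell genes, 1 was higher and 7 lower, with a median of -0.75; the gate takes Foxp3+ cells out of the Tfh cells alone, and against the narrower set 2 of 13 were higher and 4 lower, with a median of 0.16. Of 22 egress, homing and adhesion genes 3 were higher and 7 lower with a median of -0.74, but against the narrower set 3 were higher and 6 lower with a median of -0.0014. Besides the T helper 2 list, some lists had a single gene past 2-fold. Over so few genes this is near the 3.15% higher and 4.05% lower of all genes. These were the type I interferon list (1 of 27, higher), the Bcl2 family (1 of 10, higher), cholesterol synthesis (1 of 14, lower) and class I histocompatibility genes (1 of 14, H2-Q2). Of genes of cells left out by the gate, 17 of 28 cell cycle, 12 of 14 B cell and 5 of 6 plasma cell genes were lower, as were 5 of 8 myeloid and 4 of 4 erythroid and platelet genes, while Klrb1c and Trdc of 3 CD8, NK and gamma-delta markers were higher and the 1 stromal gene was within 2-fold.

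**Figure D3:**
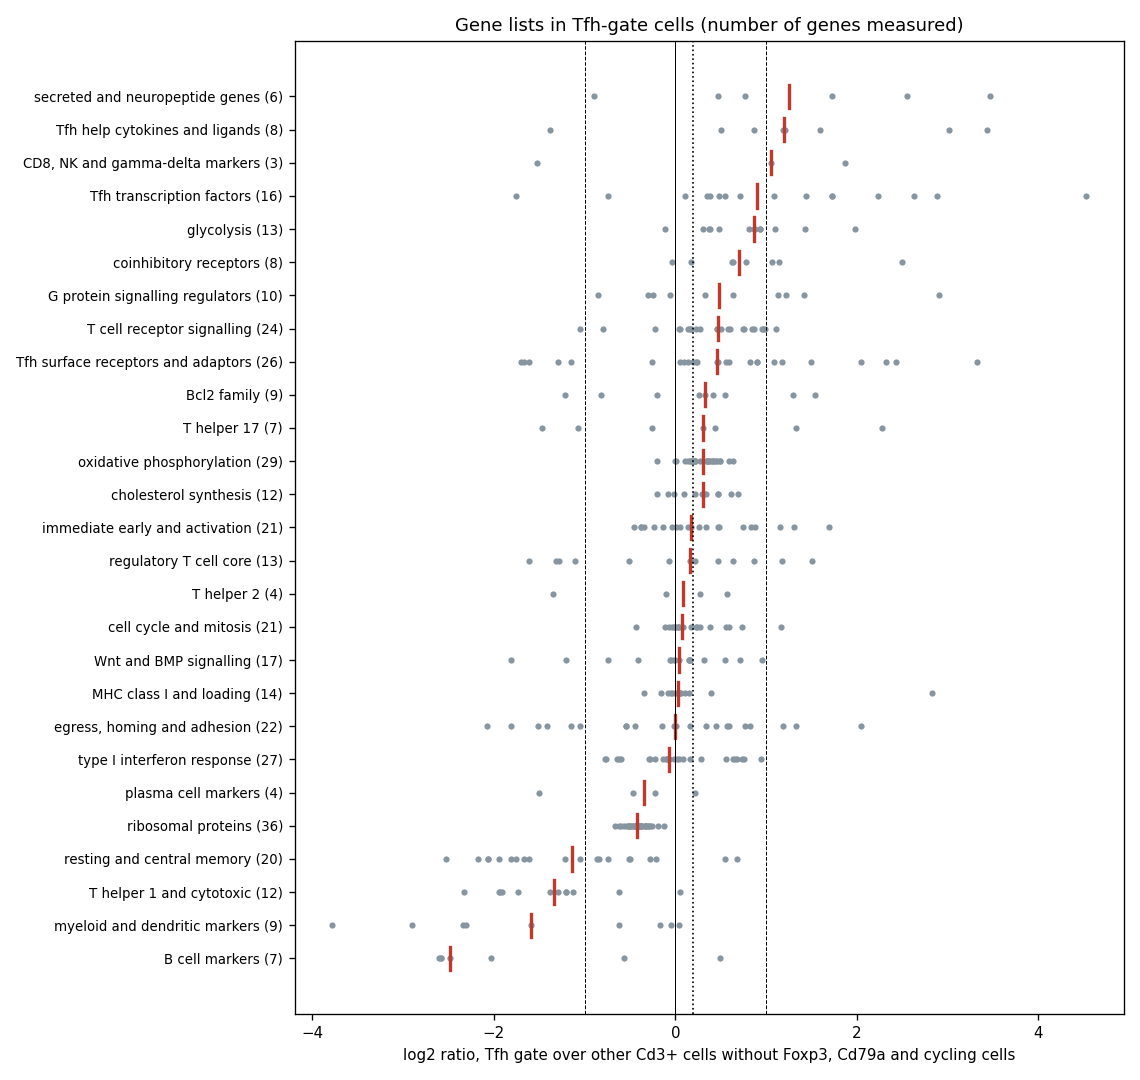
log2 ratio of Tfh cells over Cd3+ cells without Foxp3, Cd79a and cycling cells (x axis) for each measured gene (grey points) of each gene list (y axis, number of genes in brackets, lists with at least 3). Red bars are list medians, the dotted line the median of all genes (0.19) and dashed lines 2-fold; resting and T helper 1 lists lie left of 0 and help cytokine and transcription factor lists right.

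Tfh cells were also set against neighbouring gates, in which Cxcr5 or Pdcd1 had no UMI. There were 679 Cxcr5+ Pdcd1- cells and 933 Pdcd1+ Cxcr5- cells, which otherwise met the same conditions. Median depths were 5867 and 5811 UMIs, against 7043 in Tfh cells. A count of 0 can miss RNA that is present: among Tfh cells, 290 had only 1 Cxcr5 UMI and 271 only 1 Pdcd1 UMI. The neighbouring gates can therefore hold cells that express both genes. Against Cxcr5+ Pdcd1- cells, 95 of 7168 genes (1.33%) were at least 2-fold higher in Tfh cells and 38 (0.530%) lower. Against Pdcd1+ Cxcr5- cells, 76 of 7175 (1.06%) were higher and 85 (1.18%) lower. Padi4 was at 56.9 CPM in Tfh cells, 4.27 CPM in Cxcr5+ Pdcd1- cells and 8.78 CPM in Pdcd1+ Cxcr5- cells. Bcl6 was at 73.8, 25 and 23.1 CPM in the same order, Il21 at 69.9, 20.2 and 25.2 CPM, and Il4 at 42.7, 8.32 and 12.6 CPM. The Cxcr5+ Pdcd1- cells and the Pdcd1+ Cxcr5- cells had overlapping intervals for Bcl6 and Il21, and Tfh cells stood above both. Klf2 was at 154 CPM in Tfh cells, 419 CPM in Cxcr5+ Pdcd1- cells and 380 CPM in Pdcd1+ Cxcr5- cells. Pdcd1+ Cxcr5- cells carried more effector RNA than Tfh cells: Ccl5 was at 73.5 CPM in Tfh cells and 449 CPM in these cells, Ifng at 7.98 and 109 CPM, and Cxcr6 at 27.1 and 156 CPM.

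The 80 Cxcr5+ Pdcd1+ Foxp3+ cells had a median of 8401.5 UMIs. Their levels of Tox2, Bcl6, Ascl2, Rgs16 and Il21 lay between those of Tfh cells and the other cells, with Bcl6 at 73.8 CPM in Tfh cells and 23.9 CPM (14.2 to 37.8) in Foxp3+ cells. Tcf7 was 2.14-fold higher in Tfh cells (1.83 to 2.5). Gzmb was at 13.2 CPM in Tfh cells and 365 CPM in Foxp3+ cells, and Il2ra at 9.83 and 166 CPM. For Il4 the ratio of Tfh over Foxp3+ cells was 0.974 (0.674 to 1.45) and for Sostdc1 1.19 (0.919 to 1.57), so neither was told apart at this depth. Of the 64 Sostdc1 UMIs of the Foxp3+ cells, 39 cells with exactly 1 Foxp3 UMI held 52, at 170 CPM. The 41 cells with 2 or more Foxp3 UMIs held 12, at 26.8 CPM. The 64 UMIs lay in 11 of the 80 cells, so a few cells can set this split. The sets also differed in depth, with medians of 6262 and 10899 UMIs. In all, 156 of 7241 genes (2.15%) were at least 2-fold higher in Tfh cells and 214 (2.96%) lower, but the 80 cells held few UMIs and 3.98 CPM there equals 3 UMIs.

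Sostdc1 RNA marked a minority of the Tfh cells. It was found in 112 of 681 cells, 16.4% (13.7 to 19.4), in 2.26% of the other Cd3-positive cells and in 1.68% of B cells, at 101, 7.94 and 3.02 CPM. After thinning, the shares were 11.9%, 1.36% and 1.14%, so the share in the other cells lay near that of B cells. Tfh cells held 42.6% of the Sostdc1 UMIs of Cd3-positive cells. The RNA was unevenly spread: 42 cells had 1 UMI, 37 had 2 to 4 and 33 had 5 or more, the highest cell had 36, and the top 10 cells held 38.6% of the 546 UMIs. The 112 positive cells had a median of 6983.5 UMIs and the 569 negative cells 7143.

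**Figure D4:**
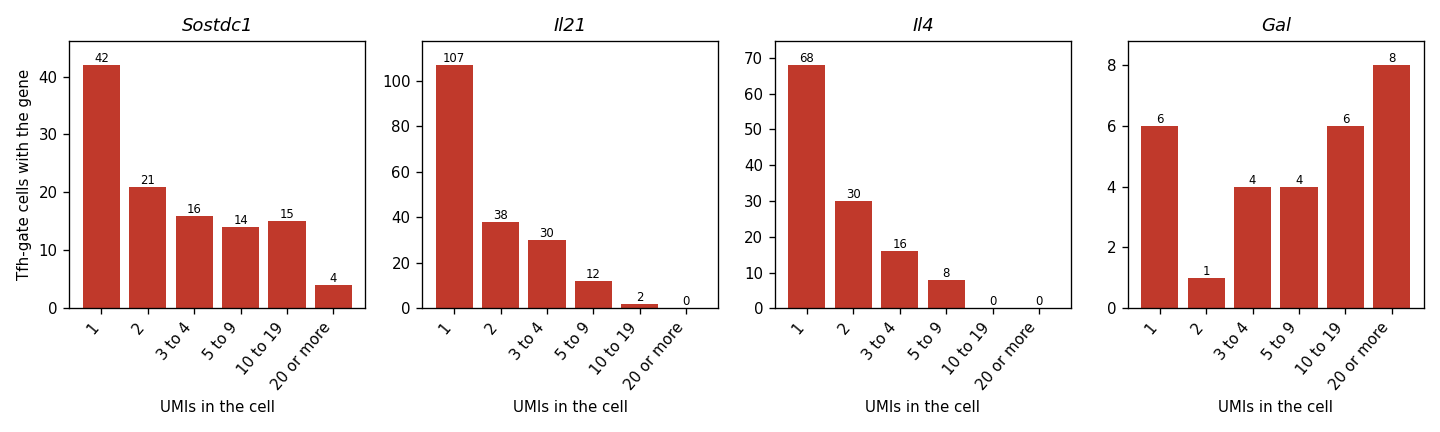
Number of Tfh cells (y axis, scales differ) by their UMIs of Sostdc1, Il21, Il4 and Gal (x axis), cells without the gene not shown and numbers above the bars. Il21 and Il4 thin out above 9 UMIs, Sostdc1 reaches 20 or more in 4 cells and Gal in 8 of its 29 cells.

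Tfh cells with Sostdc1 were also set against those without it. With 112 cells in one set, only genes with a mean of at least 20 CPM were compared, 5259 in all, of which 20 (0.380%) were at least 2-fold higher in positive cells and 19 (0.361%) lower. Cxcr5 was at 267 CPM in positive and 282 CPM in negative cells, a ratio of 0.947 (0.824 to 1.08), and Pdcd1 at 1.05 (0.936 to 1.18), but the gate required both genes in every cell. Tox2 was at a ratio of 1.06 (0.889 to 1.26) and Bcl6 at 1.12 (0.858 to 1.43). Some genes stood higher in summed level in positive cells: Rgs16 at 2.12-fold (1.57 to 2.85), Angptl2 at 1.80-fold (1.5 to 2.16), Cd160 at 1.76-fold (1.30 to 2.35), Ascl2 at 1.72-fold (1.23 to 2.38) and Il21 at 1.37-fold (1.07 to 1.75), while Il4 was at 1.07 (0.749 to 1.5). These intervals count UMIs and not cells. Rgs16 was found in 17.9% of positive and 13.5% of negative cells, Ascl2 in 21.4% and 15.3% and Il21 in 34.8% and 26.4%, with overlapping intervals. Angptl2 was found in 55.4% and 36.2% and Cd160 in 28.6% and 18.3%. After thinning, the ratios of summed levels were 1.27 for Angptl2 and 1.96 for Cd160. The highest genes were H2-Aa (6.08-fold), Prelid2 (3.96-fold), Tshz2 (3.57-fold), Apoe (3.26-fold), Ctsl, a lysosomal protease (2.41-fold), and Hivep3 (2.37-fold), followed by Spry1, Ica1l, Bhlhe40 and Gpm6b. H2-Aa and Apoe rested on few cells: 10 cells held 60.0% of the 90 H2-Aa UMIs and 82.2% of the 376 Apoe UMIs, and the part of B cell or myeloid RNA was not tested. Few positive cells also lay behind Prelid2 (40 UMIs in 18 cells), Tshz2 (33 in 12), Spry1 (27 in 14) and Bhlhe40 (29 in 14). The lowest were Il18r1, an interleukin 18 receptor chain (2.95-fold lower), Rgs1 (2.46-fold), Glipr2, the interferon-induced gene Ifit3, BC147527 and Tars. By list, 2 of 7 T helper 1 and cytotoxic genes were lower in positive cells (median -0.89), as were 2 of 21 interferon genes, while 2 of 5 B cell genes (median 0.73) and 2 of 14 immediate early genes were higher, and of 4 myeloid genes 1 was higher and 2 lower. None of 24 Tfh receptor and adaptor genes and none of 13 Wnt and BMP genes passed 2-fold, which at shares of 0.380% and 0.361% over all genes says nothing particular about these lists.

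Il4 was found more often in Tfh cells with Il21 than in those without. Il21 was present in 189 Tfh cells and Il4 in 122, both in 51 cells, or 7.49% (5.63 to 9.73), Il21 alone in 138, Il4 alone in 71 and neither in 421. Il4 was found in 27.0% of cells with Il21 (20.8 to 33.9) and in 14.4% of cells without it (11.4 to 17.9), and after thinning in 16.7% (10.0 to 25.3) and 8.54% (6.36 to 11.2). Cells with both had more Pdcd1 (514 CPM) than those with neither (313 CPM), more Cebpa (198 and 47.7 CPM), more Krt83 (211 and 67.1 CPM) and less Klf2 (64.0 and 194 CPM) and S1pr1, an egress receptor (32.0 and 99.9 CPM). With Il4 alone and Il21 alone, Krt83 was at 180 and 70.4 CPM, Pdcd1 at 441 and 374 CPM and Cebpa at 57.8 and 92.0 CPM. In the same order Klf2 was at 128 and 98.6 CPM and S1pr1 at 71.8 and 50.5 CPM. For Krt83 the intervals with both (172 to 257) and with Il4 alone (147 to 219) overlapped. The 51 cells with both were deeper, with a median of 8214 UMIs against 6685 with neither, and the part of depth was not tested. Of the Krt83 UMIs of Tfh cells, 10 cells held 30.9%. Sostdc1 was found in 19.6% of cells with both, 21.0% with Il21 alone, 15.5% with Il4 alone and 14.7% with neither, and these intervals overlapped. The summed Sostdc1 level was 173 CPM (150 to 198, 209 UMIs in 29 cells) with Il21 alone. It was 72.6 CPM (50.3 to 101) with both, 85.8 CPM (63.5 to 113) with Il4 alone and 80.8 CPM (71.1 to 91.3) with neither. These intervals treat UMIs as independent, but the top 10 Tfh cells held 38.6% of Sostdc1 UMIs. They therefore cannot tell a difference between the groups from a few cells with much Sostdc1. After thinning, Sostdc1 was found in 19.6% of cells with Il21 (12.4 to 28.6) and 10.5% of cells without it (8.09 to 13.3). Ascl2 and Rgs16 also shared cells: Ascl2 was found in 48.5% of cells with Rgs16 and 11% of cells without it, and after thinning in 32.0% (19.5 to 46.7) and 7.65% (5.68 to 10.0).

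Within the gate, cells with more Pdcd1 RNA had higher levels of Ascl2, Il4, Krt83 and Cebpa and lower levels of Klf2 and Il7r. Cells with 1 Pdcd1 UMI numbered 271, with 2 to 3 UMIs 229 and with 4 or more 181, with median depths of 6208, 6934 and 8259 UMIs. Across these grades Ascl2 was at 16.3, 35.6 and 61.0 CPM, Il4 at 15.8, 45.7 and 71.3 CPM, Krt83 at 26.5, 96.5 and 166 CPM and Cebpa at 38.7, 66.0 and 117 CPM. Klf2 was at 240, 115 and 94.9 CPM, Il7r at 107, 60.4 and 29.0 CPM and Ccr7 at 90.1, 43.5 and 40.5 CPM, while S1pr1 was at 113, 61.0 and 61.0 CPM. Il21 was at 45.8, 53.6 and 116 CPM, and the thinned share of cells with Il4 was 3.77%, 11% and 17.1%. Cd40lg was at 77.9, 81.9 and 91.9 CPM with overlapping intervals, and in 20.8%, 20.6% and 19.9% of thinned cells. For Sostdc1 the level and the share of cells went differently: it was at 76.3, 127 and 103 CPM, but in 11.1%, 17.9% and 22.7% of cells, or 7.92%, 13.3% and 16% after thinning, where the intervals overlapped. Graded by Cxcr5 in the same way, Sostdc1 was at 116, 98.4 and 76.4 CPM. The thinned share of cells with Sostdc1 did not fall steadily across the Cxcr5 grades, at 11.8%, 12.8% and 9.91% with overlapping intervals. Across the Pdcd1 grades Icos and Id3 stayed within a narrow range, Icos at 340, 393 and 390 CPM and Id3 at 157, 190 and 163 CPM.

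**Figure D5:**
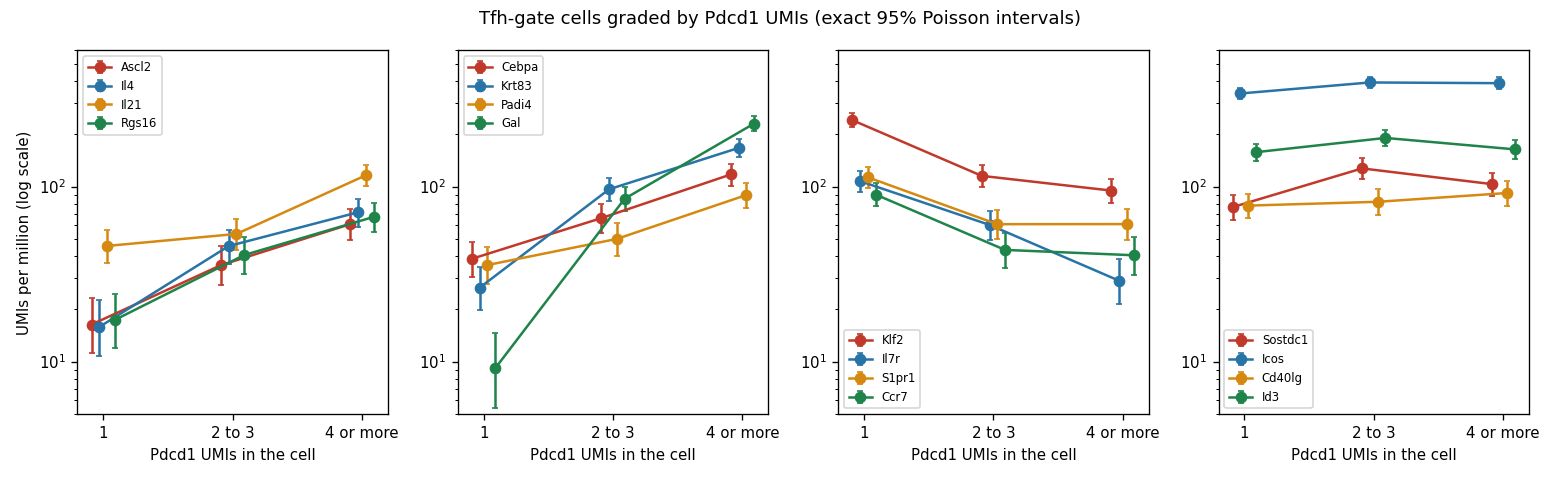
Summed level in CPM (y axis, log scale) in Tfh cells with 1, 2 to 3 and 4 or more Pdcd1 UMIs (x axis) for genes of Tfh help and function, genes of the highest group and Gal, genes of egress and memory, and Sostdc1, Icos, Cd40lg and Id3; bars are exact 95% Poisson intervals. Ascl2, Il4, Krt83 and Cebpa climb with the grade and Klf2 and Il7r decline.

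At the edge of the gate, 155 Tfh cells had exactly 1 UMI of both Cxcr5 and Pdcd1, with a median depth of 5820 UMIs. Just outside lay 493 cells with 1 Cxcr5 UMI and Pdcd1 at 0 and 635 cells with 1 Pdcd1 UMI and Cxcr5 at 0. Tox2 was at 95.5 CPM in the 155 cells, 54.3 CPM in the 493 and 33.0 CPM in the 635, and Il21 at 39.1, 14.1 and 20.2 CPM. Sostdc1 was at 71.9, 18.2 and 12.1 CPM. Among cells left out only for 2 or more cycling genes, 141 in all with a median of 17658 UMIs, Il21 was at 72.7 CPM and Il4 at 46.2 CPM, near the levels of the Tfh cells, and Sostdc1 at 30.8 CPM. The 47 cells left out only for Cd79a had Sostdc1 at 144 CPM.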

How the data were processed

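The authors deposited 1 single-cell matrix of raw UMI counts. Per the file headers it was written by Cell Ranger 3.1.0, while the submitters' processing notes name Cell Ranger 2.1.0 and Seurat 2, with the builds mm9 and mm10; no source used here says why they differ. Of 15002 barcodes, 835 had under 500 genes and 977 more at least 10% mitochondrial UMIs. No doublet caller was run; alternatives left out cells with B cell markers (a set of 4 of them added after seeing the data) and the 10% deepest cells. UMIs were summed over cells and scaled to CPM. With 1 library no test was possible, so size rules were used: 2-fold, mean of at least 10 CPM, or 20 in the Sostdc1 split, with the 11 gate genes left out. Ratios have exact conditional binomial, levels Poisson and shares Clopper-Pearson 95% intervals. Thinning drew 3000 UMIs per cell with a fixed seed. The members and the 29 gene lists were chosen with earlier results of these data known. Named genes are the 20 highest and 12 lowest with a UMI in at least 5% of cells of the higher group, without receptor, immunoglobulin, predicted and mitochondrial genes, up to 5 per list, all measured transcription factors, cytokines and secreted genes, and the 10 highest and 6 lowest of the Sostdc1 split (10% of cells). Genes compared between neighbouring gates, by Pdcd1 grade or by co-detection were picked from these with values in view. The interval code was tested on simulated data. Python 3.11.15, numpy 2.4.6, scipy 1.17.1 and pandas 2.3.3 were used. The bulk count table and the other samples were not used here, and a few genes that the naming rule selects are not reported here.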

Additional observations from a re-analysis of the deposited data

How the results depend on the processing

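Gate settings gave 681 Tfh cells, but 232 with under 5% mitochondrial UMIs, 275 with at least 2 UMIs of Cxcr5 and of Pdcd1, and 321 when gated on thinned counts. The Sostdc1 share of 16.4% became 19.6% with 2 UMIs of each gate gene, 11.9% after thinning and 11.8% when also gated on thinned counts. Genes at least 2-fold lower, 293, became 176 with cycling cells kept, 116 against the narrower set, 178 without the 10% deepest cells, 441 with totals free of mitochondrial and ribosomal genes, 959 at a 1 CPM limit and 5842 without a limit. Genes at least 2-fold higher, 228, became 522 at 1 CPM and 1478 without a limit. The higher genes were 43.8% of those past 2-fold, 67.4% against the narrower set, 33.5% with median-ratio scaling (169 higher, 336 lower) and 35% with totals free of mitochondrial and ribosomal genes (237 higher, 441 lower). The Sostdc1 split gave 20 higher and 19 lower genes, 91 and 93 after thinning, and 39 lower with at least 2 Sostdc1 UMIs. The share with Il21 and Il4 was 2.56% on thinned counts. The cell cycle median, -1.33, became 0.18 with cycling cells kept and 0.077 against the narrower set, and that of CD8, NK and gamma-delta markers, 1.55, became -0.68 at 1 CPM and without a limit. Lower limits measure more genes and thinning leaves fewer UMIs; the cause was not tested otherwise. For the 20 highest genes, all 320 alternative values stayed at least 2-fold, the lowest log2 ratio being 2.04. These genes were picked as the highest in largely the same cells, so that outcome was close to fixed in advance. No paired analysis was possible because the result comes from 1 library. Depth limits genes under 10 CPM and the 80 Foxp3+ cells most.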

Other observations

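Gal, which encodes the neuropeptide galanin, was chosen with its values in view, since it lies under the share of cells needed for naming. It had 548 UMIs in 29 Tfh cells, or 4.26% (2.87 to 6.06), at 102 CPM, and 297 UMIs in 24 of the other Cd3-positive cells, at 3.20 CPM. The top 10 Tfh cells held 82.7% of its UMIs and the highest cell 93 UMIs. By Pdcd1 grade it stood at 9.16, 85.2 and 229 CPM. Gal was found in 12.6% of Tfh cells with Ascl2 (7.07 to 20.3) and 2.63% of those without it (1.48 to 4.30), and in 14.3% and 2.5% after thinning. Among Tfh cells it was at 8.39 CPM in those with Sostdc1 and 122 CPM in those without, with UMIs in 4 and 25 cells, and the few cells behind it limit that contrast.

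Pax5, the transcription factor that sets B cell identity, was chosen the same way. It had 77 UMIs in 59 Tfh cells, 8.66%, and at most 3 in a cell. Its level was 14.3 CPM in Tfh cells, 5.17 CPM in Cxcr5+ Pdcd1- cells, 2.39 CPM in Pdcd1+ Cxcr5- cells and 1.47 CPM in the narrower comparison set. Thinned shares were 4.37% in Tfh cells and 0.364% in the narrower set. Ms4a1 was at 2.41 CPM and Ebf1 at 1.67 CPM in Tfh cells, with ratios of 0.967 and 0.897 to the narrower set. In the 477 B cells Pax5 was at 178 CPM, and the part of B cell RNA in its level was not tested. Pou2af1 was found in 23.8% of Tfh cells and 4.38% of the narrower set.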
